A study of Mus musculus with 13 samples.

Results

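The genes described here are 10 transcripts of the machinery by which pancreatic acinar cells sense a secretagogue and release digestive enzymes, of 23366 genes measured in the mouse pancreas. They were chosen as a named list, matched to the deposited table by Entrez identifier, and all 10 were in it: the receptors Cckar, Chrm1, Chrm3, Sctr and Vipr1, the calcium release channels Itpr2 and Itpr3, the granule GTPases Rab3d and Rab27b, and the granule SNARE Vamp8. Acinar cells fill most of the pancreas and store enzymes in zymogen granules. Cholecystokinin and acetylcholine act on receptors coupled to Gq, which activates phospholipase C; the inositol trisphosphate formed opens calcium channels of the endoplasmic reticulum, and the calcium signal drives fusion of granules with the apical membrane. Secretin and vasoactive intestinal peptide act on receptors coupled to Gs, which raises cyclic AMP.

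RNA of whole pancreas was sequenced from 13 female mice with 1 library per mouse. The 4 young mice were 13 weeks old, the 5 old mice were 55 weeks old, and the 4 old-OSKM mice were 58 weeks old by the labels (the text of the study gives the age of the old mice for them too) and had received doxycycline for 1 week followed by 2 weeks of recovery. All 3 groups were of a reprogrammable strain, in which doxycycline switches on a cassette of Oct4, Sox2, Klf4 and Myc (OSKM), so the untreated young and old mice carried the cassette as well. The cassette is not expressed evenly across cell types, per the study. Per the study, doxycycline was given in drinking water with added sucrose, and it is not stated whether untreated mice received sucrose. Between old-OSKM and old mice, the induction of OSKM, doxycycline itself, any sucrose given only with it and the difference in age cannot be told apart.

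Values are log2 RPKM, that is reads scaled by the length of the transcript and by the total of mapped reads, as the authors quantile normalized them, so they can be compared between genes as well as between mice. The table holds no read counts, so the depth of each library and the counting error of each value are unknown. Differences are contrasts of group means on the log2 scale from limma, with all 3 groups in 1 fit. A gene was called when the fold change exceeded 1.5 and the raw p was under 0.01, and adjusted p-values (Benjamini-Hochberg) were taken over all 23366 genes. The mice are separate animals, numbered here in the order of their records, and the numbers pair nothing. In bulk tissue, fewer cells of a type and less RNA per cell cannot be told apart.

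The pancreas had its defining markers: the summed RPKM of 19 acinar genes lay between 14232 and 15700 in the 13 mice. The 14 enzymes and granule proteins among them sit at the top of the table, where quantile normalization leaves only 1 to 7 distinct values per gene over the 13 mice, so this sum does not measure how steady the acinar content was. The mean of the 5 acinar transcription factors in the list was 2.86 to 2.93 log2 RPKM in young, 2.86 to 2.99 in old and 2.67 to 2.94 in old-OSKM mice, and none of the 5 was called. This mean hides opposite extremes in old-OSKM mouse 4. There Ptf1a and Gata4 had the lowest of the 13 values, and Rbpjl and Nr5a2 the highest. The mean therefore does not show that the single factors were steady. One library stood apart. Old-OSKM mouse 4 held the lowest or the highest of the 13 values in 60.7% of all genes, against 6.64% to 21.1% in the other mice. It had the highest duct sum (56.0 RPKM over 10 genes), the highest islet sum (517 over 12 genes) and the highest stromal and vessel sum (84.4 over 9 genes). For some results below, the value without it is therefore given as well. Results given only with it may depend on that mouse.

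The 10 transcripts spanned a wide range of levels. Cckar, the receptor for cholecystokinin, was highest at a mean of 4.64 log2 RPKM over the 13 mice, or 24.9 RPKM, above 99.3% of all genes. Rab3d followed with 10.6 RPKM and Vamp8 with 8.10 RPKM. Both are proteins of the granule membrane, and Rab3d exceeded Vamp8 in 13 of 13 mice although their ranges overlapped. Rab27b (3.30 RPKM) and Itpr2 (3.21 RPKM) were not separated, Rab27b being higher in 8 of 13 mice. Below them came Chrm3 (2.10 RPKM), Itpr3 (1.78 RPKM) and Vipr1 (0.58 log2 RPKM), each with a range that overlapped that of the next. Chrm1 (0.808 RPKM) and Sctr (0.175 RPKM) were lowest, and Sctr lay above only 35.3% of all genes.

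**Figure D1:**
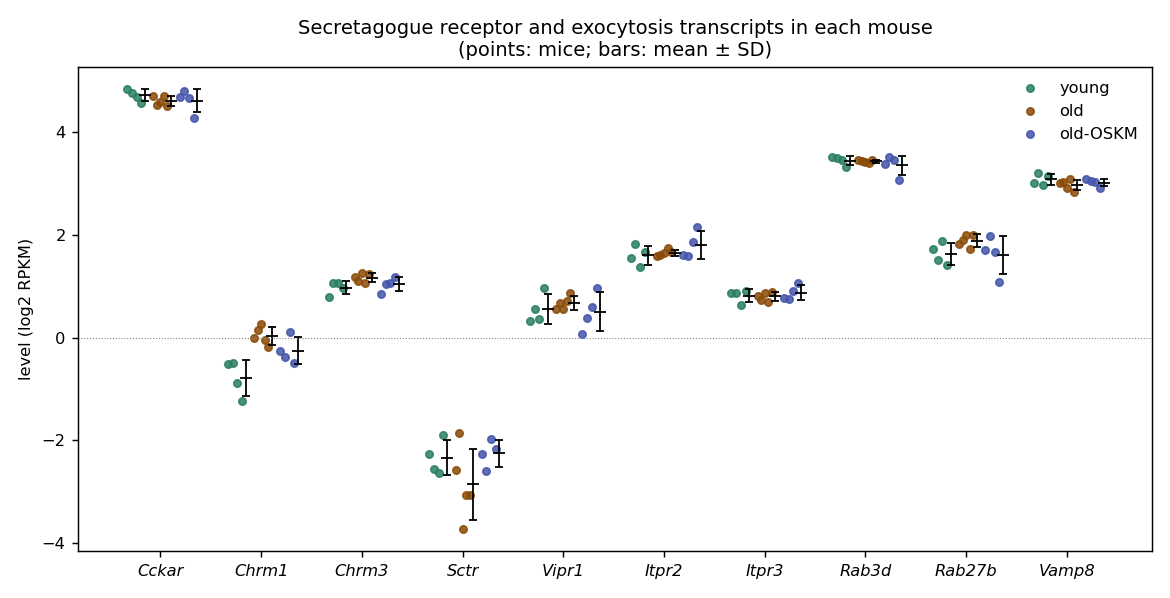
Level of each of the 10 transcripts in each mouse (log2 RPKM, vertical axis), with points for the 4 young, 5 old and 4 old-OSKM mice and bars for the mean ± SD of each group. Cckar lies highest and Sctr lowest, and in Chrm1 all 5 old mice lie above all 4 young mice.

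Between old and young mice, 1 of the 10 transcripts was called, against 0.886% of all genes (0.449% in the upward direction): Chrm1, the M1 muscarinic acetylcholine receptor, was higher in old mice. In 2 of the 10, Chrm1 and Chrm3, every old mouse exceeded every young one, while groups did not overlap in 2.71% of all genes, and did so upward in 1.5%. These were also the 2 of the 10 with an unadjusted p under 0.05 by limma, against 5.52% of all genes. Between old-OSKM and old mice, none of the 10 was called, against 0.753% of all genes, and none had groups that did not overlap (1.73% of all genes). At an unadjusted p under 0.05 limma found 0 of the 10 in that comparison, against 8.07% of all genes. Between old-OSKM and young mice, none was called (0.625% of all genes), and Chrm1 alone had groups that did not overlap (1.9% of all genes). At an unadjusted p under 0.05 limma found 1 of the 10 there, Chrm1, against 5.07% of all genes. The 3 comparisons share groups, so they are not independent of one another.

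The median difference of the 10 was 0.02 between old and young mice, where that of all genes was 0.0012. It was -0.04 between old-OSKM and old mice, the same to 2 decimals as that of all genes (-0.04), and 0.01 between old-OSKM and young mice against -0.04 in all genes. The 95% interval of the difference stayed within a fold change of 1.5 in both directions for 7 of the 10 between old and young mice, for 7 between old-OSKM and old mice and for 8 between old-OSKM and young mice. For the others the data do not bound the change that closely.

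**Figure D2:**
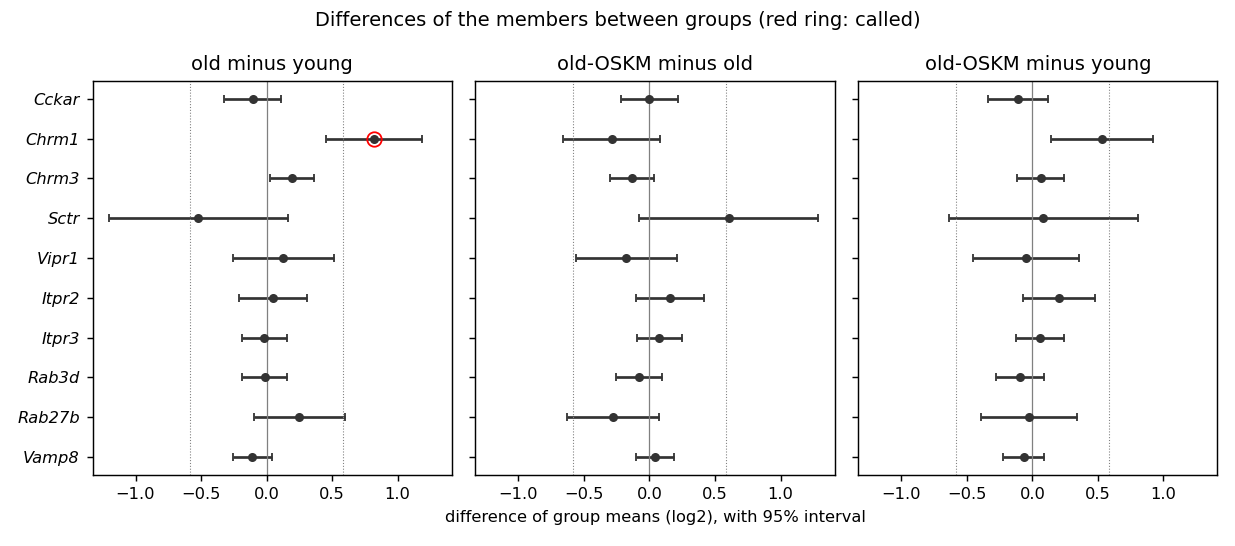
Difference of group means for each transcript (log2, horizontal axis) with its 95% interval, in the 3 comparisons. Dotted lines mark a fold change of 1.5 in either direction and the red ring marks the only called difference, 0.82 for Chrm1 between old and young mice.

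Among the receptors coupled to Gq, Cckar (chromosome 5, 53698485 to 53707704, GRCm38.p6) was the most abundant. Its levels were 4.84, 4.75, 4.68 and 4.57 log2 RPKM in the young mice, 4.71, 4.52, 4.58, 4.71 and 4.51 in the old mice, and 4.68, 4.79, 4.66 and 4.28 in the old-OSKM mice. The groups overlapped throughout, and the value of old-OSKM mouse 4 was the lowest of all 13. The difference was -0.11 (SE 0.10) between old and young mice and close to 0 between old-OSKM and old mice, with a 95% interval from -0.22 to 0.21. Without old-OSKM mouse 4, old-OSKM minus old was 0.11. In 4 of the 13 mice the value of Cckar was identical to that of another mouse, because quantile normalization gives the same value to the same rank.

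Chrm1 (chromosome 19, 8664005 to 8683606) was the transcript that differed most between old and young mice. Its levels were -0.52, -0.50, -0.89 and -1.24 log2 RPKM in the young mice, -0.0075, 0.15, 0.26, -0.05 and -0.18 in the old mice, and -0.27, -0.37, 0.12 and -0.49 in the old-OSKM mice. All 5 old mice lay above all 4 young mice, and all 4 old-OSKM mice did so too, although old-OSKM mouse 4 lay only just above the highest young mouse. Young mice averaged -0.79 ± 0.35 (SD, n = 4), old mice 0.03 ± 0.17 (SD, n = 5) and old-OSKM mice -0.25 ± 0.26 (SD, n = 4).

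Old minus young was 0.82 (SE 0.17), a 1.77-fold higher level with a 95% interval of 1.37 to 2.28, and passed the call by limma at a raw p of 0.000434. Its adjusted p over all genes was 0.147, so the difference did not pass that correction, and the adjusted p ranged from 0.121 to 0.353 as each mouse was left out in turn. Old-OSKM minus old was -0.29 (SE 0.17), with a 95% interval from -0.66 to 0.08, an adjusted p of 0.608 by limma and 3 of 4 old-OSKM mice below the lowest old mouse. It was -0.21 without old-OSKM mouse 4, at a raw p of 0.273 by limma. Old-OSKM minus young was 0.53 (SE 0.18), at a raw p of 0.0116 and an adjusted p of 0.706 by limma, which misses the call. It was called at 0.62 without young mouse 1, at 0.63 without young mouse 2 and at 0.61 without old-OSKM mouse 4.

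The sample identifiers in the labels fall into 2 runs of numbers, and young mice 3 and 4 and old mouse 5 are in the second. These 3 mice had the lowest Chrm1 levels of their groups. Within the first run, the 4 old mice exceeded the 2 young mice by 0.60 on the log2 scale, and within the second the 1 old mouse exceeded the 2 young mice by 0.88, with every old mouse above every young mouse of its run. With the run as a covariate, old minus young was 0.69 and was still called. In the same fit old-OSKM minus old was -0.37, at a raw p of 0.0172 and an adjusted p of 0.581 by limma, which misses the call. Old-OSKM minus young was 0.32, at a raw p of 0.065 and an adjusted p of 0.712 by limma. All old-OSKM mice are in the first run. What the runs stand for is not stated in the labels.

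Chrm1 is also a receptor of neurons, and the list of 10 nerve and smooth muscle markers was read beside it. The summed level of that list was 3.79 to 5.16 RPKM in young, 3.60 to 4.84 RPKM in old and 3.40 to 6.05 RPKM in old-OSKM mice. The annotation places a small RNA gene, Gm22820, on the opposite strand within the Chrm1 locus. The library kit does not mark strand, and the counted table has no separate row for it.

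Chrm3 (chromosome 13, 9875486 to 10361062), the M3 muscarinic receptor, was the more abundant of the pair in every mouse. Its levels were 0.80, 1.07, 1.06 and 0.96 log2 RPKM in the young mice, 1.18, 1.10, 1.25, 1.07 and 1.23 in the old mice, and 0.85, 1.04, 1.06 and 1.18 in the old-OSKM mice. The lowest old value (1.0716) exceeded the highest young value (1.0708) by less than 1 unit of the second decimal. The difference was 0.20 (SE 0.08), a 1.15-fold higher level with a 95% interval of 1.02 to 1.29, and its adjusted p was 0.785 by limma. Old-OSKM minus old was -0.13 (SE 0.08), or -0.18 without old-OSKM mouse 4. Chrm1 made up 23.1% ± 4.75 (SD, n = 4) of the summed Chrm1 and Chrm3 RPKM in young mice, 31.4% ± 2.72 (SD, n = 5) in old mice and 29.2% ± 4.54 (SD, n = 4) in old-OSKM mice. The highest young share was 28.6%, and the lowest old share was 27.3%, so the shares overlapped between those groups.

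The receptors coupled to Gs did not pass the call in any comparison of all mice. Sctr, the secretin receptor (chromosome 1, 120006879 to 120063539), had -2.26, -2.55, -2.64 and -1.89 log2 RPKM in the young mice, -2.58, -1.86, -3.72, -3.05 and -3.06 in the old mice, and -2.26, -2.60, -1.97 and -2.17 in the old-OSKM mice. The old mice spread widest, holding both the lowest and the highest of the 13 values. The difference between old and young mice was -0.52 (SE 0.31), and old-OSKM minus old was 0.61 (SE 0.31), with a 95% interval from -0.08 to 1.29 and an adjusted p of 0.581 by limma.

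Both of these Sctr differences changed when old mouse 2 or old mouse 3 was left out. Without old mouse 3, which had the lowest value, old minus young was -0.30 and old-OSKM minus old was 0.39, neither called. Without old mouse 2, which had the highest value, old minus young was -0.77 (raw p 0.00955) and old-OSKM minus old was 0.85 (raw p 0.00525), both past the call by limma, with adjusted p of 0.68 and 0.555. Secretin receptors are known from duct cells as well as acinar cells. The summed level of 10 duct markers was 37.4 to 40.0 RPKM in old mice, 38.5 to 51.6 in young and 38.7 to 56.0 in old-OSKM mice. Between old and young mice 9 of the 10 duct markers had a lower mean in old mice, against 10643 of all 23366 genes. Between old-OSKM and old mice 6 had a higher and 4 a lower mean in old-OSKM mice (median 0.06). None was called in either comparison. Their part in the Sctr values was not tested. At these levels, a few reads may carry a value, and the reads are unknown.

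Vipr1, a receptor of vasoactive intestinal peptide (chromosome 9, 121642716 to 121672954), had 0.32, 0.56, 0.36 and 0.96 log2 RPKM in the young mice, 0.56, 0.68, 0.55, 0.72 and 0.87 in the old mice, and 0.06, 0.38, 0.59 and 0.97 in the old-OSKM mice. Young mouse 4 and old-OSKM mouse 4 had the highest values, and the groups overlapped. These 2 mice also had the highest stromal and vessel marker sums of their groups, 63.2 and 84.4 RPKM. The same held for the duct (51.6 and 56.0 RPKM), nerve and smooth muscle (5.16 and 6.05 RPKM) and adipocyte markers (8.80 and 13.8 RPKM). The part of any of those cells in the value was not tested. The difference between old and young mice was 0.13 (SE 0.18) and old-OSKM minus old was -0.18 (SE 0.18). Without young mouse 4, old minus young was 0.26, and without old-OSKM mouse 4, old-OSKM minus old was -0.33, at raw p of 0.146 and 0.0617 and adjusted p of 0.994 and 0.801 by limma. Without old-OSKM mouse 1, which had the lowest value, old-OSKM minus old was -0.031.

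**Figure D3:**
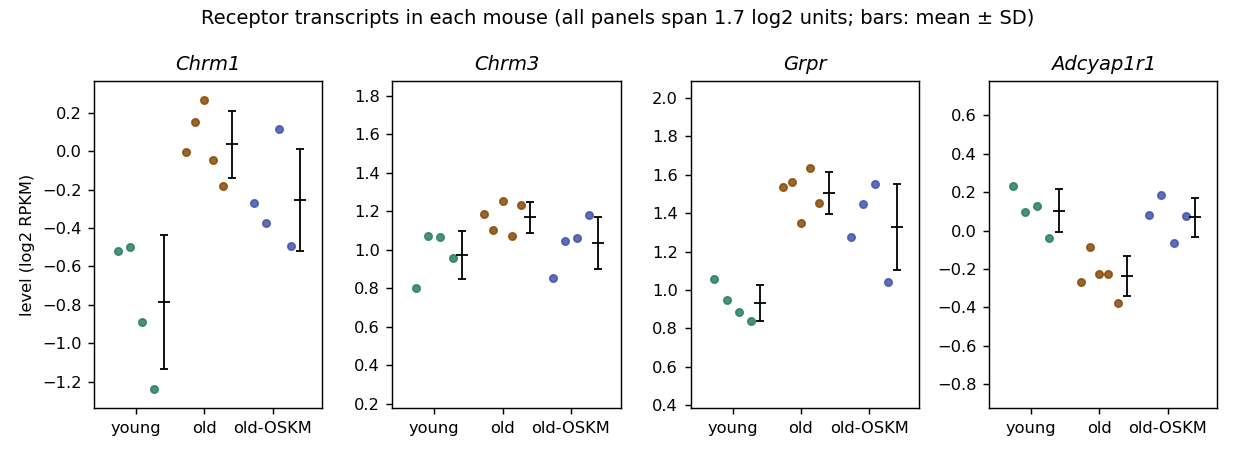
Levels of the muscarinic receptors Chrm1 and Chrm3, of Grpr and of Adcyap1r1 in each mouse (log2 RPKM, vertical axis; all panels span the same number of log2 units), with bars for the mean ± SD of each group. Old mice lie above young mice in Chrm1 and Grpr and below them in Adcyap1r1, while the old-OSKM mice of Adcyap1r1 lie above all old mice.

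Other receptors of the acinar cell were read from a list of 10. None was called in any comparison. Grpr, the receptor of gastrin-releasing peptide, also coupled to Gq, had 1.06, 0.95, 0.89 and 0.84 log2 RPKM in the young mice, 1.54, 1.56, 1.35, 1.63 and 1.45 in the old mice, and 1.28, 1.45, 1.55 and 1.04 in the old-OSKM mice. No old mouse fell as low as any young mouse. The difference between old and young mice was 0.57 (SE 0.10), a 1.49-fold higher level that missed the threshold of 1.5 in fold, at a raw p of 9.89e-05 and an adjusted p of 0.0791 by limma, and it was called when young mouse 1, old mouse 3 or old mouse 5 was left out (0.61, 0.61 and 0.59). Without old-OSKM mouse 4 the difference was the same and its adjusted p was 0.0215 by limma, and over all 13 fits that left out a mouse the adjusted p ranged from 0.0215 to 0.261. Old-OSKM minus old was -0.18 (SE 0.10), and old-OSKM minus young was 0.40 (SE 0.10), at an adjusted p of 0.662 by limma. Old-OSKM mouse 4 had the lowest value of its group (1.04), and old-OSKM minus young was 0.49 without it.

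Adcyap1r1, a receptor for the peptide PACAP, which is related to vasoactive intestinal peptide, lay the other way. Its levels were 0.23, 0.10, 0.12 and -0.04 log2 RPKM in the young mice, -0.27, -0.09, -0.23, -0.23 and -0.38 in the old mice, and 0.08, 0.18, -0.06 and 0.08 in the old-OSKM mice. All old mice lay below all young mice and below all old-OSKM mice. Old minus young was -0.34 (SE 0.07; adjusted p 0.174 by limma), a 1.27-fold lower level, and old-OSKM minus old was 0.31 (SE 0.07; adjusted p 0.547), a 1.24-fold higher level. Within the first run of sample identifiers these differences were -0.37 and 0.27. In the same list, Cckbr, the second cholecystokinin receptor, had means of -2.51 in young, -1.72 in old and -1.81 in old-OSKM mice. Young mouse 4 had -4.02, against -2.11, -1.54 and -2.38 in young mice 1 to 3. Old minus young was 0.79 (SE 0.46), at a raw p of 0.109 by limma. Cckar exceeded Cckbr by 6.63 ± 0.74 log2 units (SD, n = 13), most in young mouse 4 (8.59). Vipr2 had a mean of 0.66 in old-OSKM and 0.86 in old mice (difference -0.20, adjusted p 0.608 by limma).

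Downstream of the receptors, 1 of 20 genes of G proteins and second messengers was called between old-OSKM and old mice and none in the other comparisons. This was Cd38, an enzyme that makes the calcium-mobilizing messenger cyclic ADP-ribose and that immune cells express as well. It had -1.03, -0.61, -0.38 and 0.09 log2 RPKM in the young mice, -0.87, -0.55, -0.93, -0.82 and -0.93 in the old mice, and 0.12, -0.34, -0.33 and -0.13 in the old-OSKM mice. All old-OSKM mice lay above all old mice, and the young mice overlapped both groups. The difference was 0.65 (SE 0.19), a 1.57-fold higher level with a raw p of 0.00553 and an adjusted p of 0.547 by limma, and it was not called in 6 of the 13 fits that left out a mouse. It also lost its call with a pseudocount of 0.1 (0.57) and with a pseudocount of 1 (0.27). In the same comparison all 11 immune markers had a higher mean (median 0.55), with none called and a summed level of 11.7 to 37.1 RPKM in old-OSKM against 9.06 to 15.2 RPKM in old mice. All 9 stromal and vessel markers (median 0.59, Col1a1 and Col1a2 called) and all 6 adipocyte markers (median 1.23, Plin1 called) also had a higher mean, with summed levels of 32.2 to 84.4 and 3.47 to 13.8 RPKM in old-OSKM against 25.2 to 32.0 and 3.01 to 5.38 RPKM in old mice. The part of these cells in the Cd38 value was not tested.

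The other genes of that list with the smallest raw p in a comparison were not called. Gna14, an alpha subunit of the Gq family, had old minus young 0.21 (SE 0.08; adjusted p 0.731 by limma), and Prkce, a protein kinase C, had 0.23 (SE 0.09; adjusted p 0.764). Adcy3, an adenylyl cyclase, had old-OSKM minus old 0.38 (SE 0.14; adjusted p 0.547), and Plcb1, a phospholipase C, had old-OSKM minus young 0.16 (SE 0.08; adjusted p 0.706). As each mouse was left out, that difference of Plcb1 ranged from 0.091 to 0.21.

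The channels that release calcium from the endoplasmic reticulum, Itpr2 and Itpr3, had a narrow range of ratios. Itpr2 (chromosome 6, 146108299 to 146502258) had 1.54, 1.81, 1.38 and 1.67 log2 RPKM in the young mice, 1.59, 1.60, 1.64, 1.75 and 1.67 in the old mice, and 1.61, 1.59, 1.87 and 2.15 in the old-OSKM mice. Itpr3 (chromosome 17, 27057002 to 27122223) had 0.86, 0.87, 0.63 and 0.91 in the young mice, 0.80, 0.74, 0.87, 0.70 and 0.89 in the old mice, and 0.77, 0.75, 0.91 and 1.06 in the old-OSKM mice. In both, the groups overlapped, the lowest value was that of young mouse 3, and the highest was that of old-OSKM mouse 4.

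Itpr2 exceeded Itpr3 by 0.85 ± 0.12 log2 units (SD, n = 13), from 0.68 to 1.09, and with Itpr1 included Itpr2 made up 51.3% ± 2.03 (SD, n = 13) and Itpr3 28.4% ± 1.52 of the summed RPKM of the 3 channels. Old minus young was 0.05 (SE 0.12) for Itpr2 and -0.02 (SE 0.08) for Itpr3. Old-OSKM minus old was 0.16 (SE 0.12) for Itpr2, or 0.04 without old-OSKM mouse 4, and 0.07 (SE 0.08) for Itpr3, or 0.01 without it. The annotation holds an antisense gene, Itpr3os, within Itpr3, which has no row in the table, and the library kit does not mark strand.

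Of 20 further genes of calcium handling, none was called in any comparison. At a raw p under 0.05 limma found none between old and young mice and 1 in each of the other comparisons. Tpcn1, a calcium channel of endosomes and lysosomes, had old-OSKM minus old -0.21 (SE 0.08; adjusted p 0.547), or -0.13 without old-OSKM mouse 4 and young mouse 4. Itpr1, the third inositol trisphosphate receptor, had old-OSKM minus young 0.21 (SE 0.09; adjusted p 0.706), and 0.14 to 0.26 as each mouse was left out. Atp2a3, a calcium pump of the endoplasmic reticulum, had old minus young 0.38 (SE 0.26; adjusted p 1), and Stim2, a sensor of stored calcium, had 0.11 (SE 0.07; adjusted p 1) in the same comparison and -0.13 (SE 0.07) between old-OSKM and old mice.

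At the granule, Rab3d (chromosome 9, 21907491 to 21918199), a small GTPase of the zymogen granule membrane, was the steadiest of the 10 among old mice. It had 3.51, 3.49, 3.46 and 3.32 log2 RPKM in the young mice, 3.45, 3.44, 3.42, 3.39 and 3.45 in the old mice, and 3.37, 3.51, 3.45 and 3.07 in the old-OSKM mice. The SD of the old mice was 0.024 (n = 5), and apart from old-OSKM mouse 4 all mice lay between 3.32 and 3.51. Old minus young was -0.01 (SE 0.08), and old-OSKM minus old was -0.08 (SE 0.08), or 0.01 without old-OSKM mouse 4.

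Rab27b (chromosome 18, 69979131 to 70141633), a GTPase that takes part in granule docking, had 1.73, 1.51, 1.88 and 1.41 log2 RPKM in the young mice, 1.81, 1.90, 2.00, 1.72 and 2.00 in the old mice, and 1.71, 1.98, 1.66 and 1.09 in the old-OSKM mice. The groups overlapped, with 3 of 5 old mice above the highest young mouse and 3 of 4 old-OSKM mice below the lowest old mouse. Old minus young was 0.25 (SE 0.16), with a 95% interval from -0.10 to 0.60. Old-OSKM minus old was -0.28 (SE 0.16), with an interval from -0.63 to 0.07 and an adjusted p of 0.608 by limma, and it was -0.10 without old-OSKM mouse 4. The excess of Rab3d over Rab27b averaged 1.81 ± 0.18 log2 units in young mice (SD, n = 4), against 1.54 ± 0.11 among old mice (SD, n = 5) and 1.74 ± 0.19 among old-OSKM mice (SD, n = 4).

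Vamp8 (chromosome 6, 72385221 to 72390667), the SNARE of the granule membrane that takes part in fusion, had 3.005, 3.20, 2.97 and 3.15 log2 RPKM in the young mice, 3.01, 3.03, 2.91, 3.08 and 2.83 in the old mice, and 3.08, 3.04, 3.02 and 2.91 in the old-OSKM mice. All 13 mice lay within 0.37 of one another, the narrowest range of the 10. The difference between old and young mice was -0.11 (SE 0.07), and old-OSKM minus old was 0.04 (SE 0.07), with an interval from -0.11 to 0.19. Vamp8 made up 57.7% ± 2.70 (SD, n = 13) of the summed RPKM of Vamp2, Vamp3, Vamp7 and Vamp8, with the lowest share, 51.0%, in old-OSKM mouse 4.

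Among 39 further genes of the exocytosis machinery, none was called in any comparison, and at a raw p under 0.05 limma found 2 between old-OSKM and old mice and none in the others. In that comparison 29 of the 39 had a lower mean (median -0.06), where 14741 of all 23366 genes did (median -0.04). Cadps, a priming factor of dense-core vesicles known from neuroendocrine cells, had old-OSKM minus old -0.80 (SE 0.31; adjusted p 0.547 by limma), with means of -2.05 and -1.25 log2 RPKM. It was called at -0.80 without young mouse 3 and at -1.02 without old-OSKM mouse 4. Beside it, all 12 islet markers had a lower mean in old-OSKM than in old mice (median -0.52), with none called, although their summed level was highest of all mice in old-OSKM mouse 4 (517 RPKM) and lowest in old-OSKM mouse 1 (81.9 RPKM). The part of islet cells in the Cadps value was not tested.

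Sytl5, an effector of Rab27, was higher in every old mouse than in any young mouse, with a difference of 0.23 (SE 0.11; adjusted p 0.971 by limma), and old-OSKM minus old was -0.28 (SE 0.11; adjusted p 0.547), or -0.39 without old-OSKM mouse 4 and young mouse 4. Tpd52, a granule-associated protein of acinar cells, had old minus young -0.13 (SE 0.07; adjusted p 1) and old-OSKM minus young -0.14 (SE 0.07; adjusted p 0.706). Syt3, a synaptotagmin, had old-OSKM minus young -0.30 (SE 0.15; adjusted p 0.706). As each mouse was left out, old-OSKM minus young ranged from -0.18 to -0.069 for Tpd52 and from -0.42 to -0.14 for Syt3.

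The 10 transcripts did not vary as a block across the mice. Over the 45 pairs, Pearson's r over 13 mice had a median of -0.05 and ran from -0.76 to 0.82, as a description, since the mice share groups and 1 library weighs on it. Cckar and Rab3d had the highest r (0.82), followed by Itpr2 and Itpr3 (0.78) and by Rab3d and Rab27b (0.77). Itpr2 and Rab27b had the lowest (-0.76). Without old-OSKM mouse 4 these were 0.54, 0.60, 0.41 and -0.46. Of the 45 pairs, none then exceeded 0.6 and 3 lay below -0.6. These 3 were Rab27b and Vamp8 (-0.82, against -0.30 over all 13 mice), Cckar and Vipr1 (-0.62, against -0.70) and Chrm3 and Sctr (-0.61, against -0.53).

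That mouse was at an end of the range for 6 of the 10: lowest for Cckar, Rab3d and Rab27b, and highest for Vipr1, Itpr2 and Itpr3. For all genes together the share was 60.7%, so the 10 were at the end of the range about as often as other genes. Its deviations from the mean of the 13 mice were -0.36 for Cckar, -0.34 for Rab3d and -0.64 for Rab27b, and 0.38 for Vipr1, 0.47 for Itpr2 and 0.24 for Itpr3. Chrm1, Chrm3, Sctr and Vamp8 were inside the range in that mouse. It alone also held the highest value of 8 of 12 islet, 7 of 10 duct and 6 of 9 stromal and vessel markers. Of the 19 acinar markers it held the lowest value of 7 and the highest of 3, and it held the lowest of 1 duct marker. The part of these cells in its values was not tested.

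**Figure D4:**
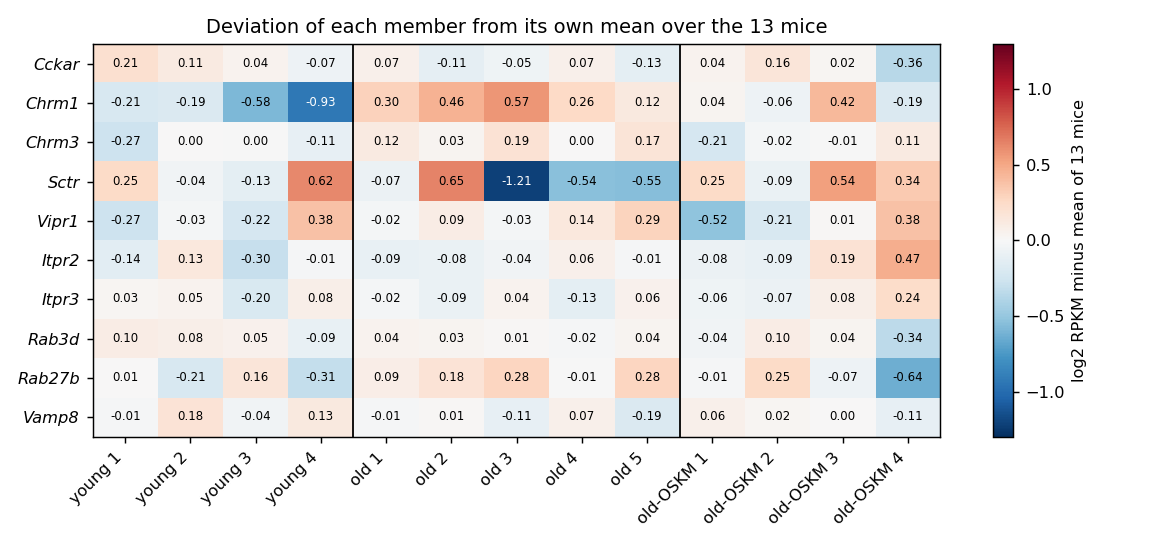
Deviation of each transcript from its own mean over the 13 mice (log2 RPKM, color and number), with mice in columns and black lines between the young, old and old-OSKM groups. Chrm1 is below its mean in all 4 young mice and above it in all 5 old mice, and old-OSKM mouse 4 is low in Cckar, Rab3d and Rab27b and high in Vipr1, Itpr2 and Itpr3.

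Among 8410 genes with a mean above 0 log2 RPKM, those whose values over the 13 mice lay closest to Cckar were Atp5b (r 0.96), a subunit of the mitochondrial ATP synthase, Idh3a (0.95), an enzyme of the citrate cycle, and Slc12a2 (0.95), an ion cotransporter. Without old-OSKM mouse 4 these were 0.92, 0.90 and 0.90. Closest to Rab3d were Lrrc8b (0.98), a subunit of a volume-regulated anion channel, Copz2 (0.97), a coat protein of transport vesicles, and Mrpl46 (0.97), a mitochondrial ribosomal protein, or 0.90, 0.89 and 0.87 without that mouse. Closest to Itpr3 were Naa15 (0.93), a subunit of an N-terminal acetyltransferase, Nr5a2 (0.89), a transcription factor of acinar cells, and Dock1 (0.88), or 0.88, 0.84 and 0.80 without it. The genes were ranked on these same mice, so the coefficients describe the ranking.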

How the data were processed

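Pancreas RNA of 13 female mice was rRNA-depleted with a kit that does not mark strand and sequenced with paired ends. Per the study's methods, the authors aligned reads with STAR 2.3.0e to mm10, estimated RPKM per isoform with Casper and summed them per Entrez gene. The deposited values are log2 RPKM, quantile normalized by the authors. Sorted values of any pair of mice differed by at most 0.0116, and 23273 of 23366 genes had a symbol. Sorted values this close would not be left by a gene-wise correction made after quantile normalization. Whether the study's correction by total reads was made before it is not known, and depth is unknown.

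Values were used as deposited. limma 3.58.1 in R 4.3.3 fitted the 3 groups together without a covariate, and tests were two-sided. In simulated data for old minus young over 23366 genes, 167 of 200 genes changed by 1 log2 unit were called, and so were 0.341% of unchanged genes. The simulated noise was normal and independent between genes, with no library standing apart. The shift of 1 also exceeds the largest difference of the 10 (0.82). These rates therefore do not describe the calls made here. Gene positions came from GRCm38.p6, and overlapping genes from GENCODE M21.

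The 10 genes, the lists of pathway genes and the cell type markers were chosen with earlier results of these data known. Named from each pathway list were genes called in a comparison and the 2 of smallest raw p in each. Closest genes were the 3 of highest r for Cckar, Itpr3 and Rab3d. Alternatives were centring on each mouse's median, pseudocounts of 1 and 0.1, a filter on mean log2 RPKM over 0, the 2 compared groups alone, eBayes with trend and robust settings, a covariate for the run of identifiers, and each mouse left out. Leaving out old-OSKM mouse 4 with young mouse 4 was added after seeing the data. Figures were drawn with matplotlib 3.10.9 in Python 3.11.15. Sequences, methylation and the other tissues were not analysed here, and the result of 1 marker gene is not reported here.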

Additional observations from a re-analysis of the deposited data

How the results depend on the processing

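Of 624 differences of the 10 genes recomputed under alternatives, 592 kept their direction and their side of the call, 1 lost its call, 5 gained one and 26 changed sign. Chrm1 between old and young mice lost its call with a pseudocount of 1 (0.35, which understates changes of low genes). The sign changes were of differences near 0. With old-OSKM mouse 4 and young mouse 4 left out, they were Itpr3 old minus young (0.012), Cckar (0.11) and Rab3d (0.011) old-OSKM minus old, and Rab27b old-OSKM minus young (0.072). With the run as a covariate, they were Vipr1 (0.068) and Rab27b (0.012) old-OSKM minus young. As each mouse was left out, old minus young ranged from -0.028 to 0.12 for Itpr2, from -0.080 to 0.012 for Itpr3 and from -0.057 to 0.0074 for Rab3d. Old-OSKM minus old ranged from -0.066 to 0.11 for Cckar and from -0.13 to 0.011 for Rab3d. Old-OSKM minus young ranged from -0.17 to 4.2e-05 for Cckar, from -0.017 to 0.23 for Sctr, from -0.20 to 0.097 for Vipr1, from -0.0071 to 0.096 for Itpr3 and from -0.15 to 0.15 for Rab27b. The cause of these changes was not tested. Of all genes, 207 were called between old and young mice, 176 between old-OSKM and old mice and 146 between old-OSKM and young mice. These counts were 16, 2 and 8 with a pseudocount of 1, 116, 77 and 76 with a pseudocount of 0.1, and 44, 35 and 19 among the genes with a mean over 0. They ranged from 175 to 280, from 94 to 338 and from 121 to 253 as each mouse was left out. The count between old-OSKM and old mice was 94 without old-OSKM mouse 1, 338 without old-OSKM mouse 2 and 284 without old-OSKM mouse 3. That between old-OSKM and young mice was 253 without old-OSKM mouse 2. Of the 10 genes, the number called between old and young mice was 0 with a pseudocount of 1 and 0 with the filter, under which Chrm1 and Sctr were not tested, and 1 to 2 as each mouse was left out. It ranged from 0 to 1 in both other comparisons. No paired analysis was possible because mice were numbered in the order of their records and the numbers carry no pairing.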
